A study of Mus musculus with 15 samples.

Results

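Genes of the DNA replication machinery were followed in group 2 innate lymphoid cells (ILC2s), cytokine-secreting lymphocytes that reside in tissues and carry no rearranged antigen receptor, isolated from mouse lung. A list of 46 genes was divided by role into origin licensing (11 genes), helicase activation (6 genes), polymerases and primase (9 genes), clamp, clamp loader and lagging strand processing (10 genes), nucleotide supply and uracil control (6 genes) and chromatin maintenance (4 genes). For each gene the array feature annotated with its symbol alone was used, and where a gene had several, the brightest on average over the 15 arrays. This gave 45 of the 22180 genes that had such a feature. Rfc4, a clamp loader subunit, had only a feature shared with Eif4a2 and was not tested. All 45 passed a filter on dim features, which asked for a level above percentile 40 of the array (log2 4.01 to 4.25) in at least 3 arrays. Of these, 42 passed through the naive adult arrays alone. Pole2 passed through the effector arrays, and Gins1 and Chaf1a through the effector or the neonatal arrays. The filter chose these 3 genes by the groups in which they were high, so their differences are given as a description, without a p-value. Counts of members called between naive, effector and neonatal cells are also given without them. Other counts and summaries include them, such as those of 2-fold differences, of arrays without overlap, of differences between the sexes and under alternatives.

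Replication starts at origins that are licensed when the origin recognition complex, Cdc6 and Cdt1 load the Mcm2 to Mcm7 ring onto DNA before S phase. The ring becomes an active helicase once Cdc45 and the GINS complex join it. Primase and the polymerases then copy the strands, while the sliding clamp Pcna, opened and closed by the replication factor C loader, holds the polymerases on DNA. Nucleotide enzymes supply the building blocks, and chromatin assembly and methylation factors restore histones and DNA methylation behind the fork. Most of these genes are transcribed under the control of E2F factors as cells enter the cycle. ILC2s in the resting adult lung divide rarely, and IL-33, a cytokine released by lung epithelium, is known to make them proliferate.

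Total RNA was measured on 15 Affymetrix arrays in 5 groups of 3, which the labels call biological replicates. Naive adult females and naive adult males were 8 weeks old. Effector adult females and effector adult males were given IL-33 intranasally on 3 successive days, and their ILC2s were isolated 1 day after the last dose; their age in weeks is not given in the sources used here. Neonates were naive mice 10 days old, of a sex that the labels do not give. No transgene, allele or strain is named for any group, all groups share the same tissue and cell type label, and the comparison group for the effector cells was the naive adults, since no group dosed without IL-33 was analysed here. How many mice made up a replicate and which markers were used to isolate the cells are likewise not given, so the p-values measure only the spread between these arrays, which may in part be technical. In RNA from many cells, more cells in cycle and more RNA per cycling cell cannot be told apart.

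Levels are log2 values. Array medians lay between 4.44 and 4.64. Over all features, arrays of a group correlated at r = 0.962 to 0.974 in the effector groups and 0.931 to 0.960 in naive females. The arrays were less alike in naive males (0.911 to 0.914) and in neonates (0.904 to 0.925). The background range was set from 1390 genes of smell and pheromone receptors, which lymphocytes are not known to use: its upper bound, the upper quartile of their group means, was 4.07 in naive adults, 3.37 in effector adults and 3.72 in neonates. All 15 ILC2 markers with a feature, among them Gata3 and Il7r, were above that bound in every group, while Il1rl1 and Areg had no feature of their own. A naive male array (replicate 2) had the highest receptor gene level (4.54), and 11 members lay in its background range, against 0 to 3 on the other 14 arrays.

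Promoter sequences were available for 38 of the 46 genes, as windows of 300 bases from 250 before to 50 after the annotated start, taken from RefSeq for the mouse build GRCm38.p6. The stretches below are shown because they carry letters of the E2F type, which E2F factors are known to bind. Searched on both strands were TTTCCCGC, TTTCGCGC, TTTGCCGC and TTTGGCGC, some of which can overlap one another on opposite strands. Each line gives up to 25 bases on either side of the match nearest the start, for every member with a match wholly before the start, written 5′ to 3′ in the direction of the gene with matches in capitals.
Orc1 (chr4:108579402-108579453, plus strand): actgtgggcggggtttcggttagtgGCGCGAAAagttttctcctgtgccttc
Cdc6 (chr11:98907988-98908045, plus strand): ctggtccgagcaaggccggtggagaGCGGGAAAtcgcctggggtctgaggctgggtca
Mcm5 (chr8:75109335-75109392, plus strand): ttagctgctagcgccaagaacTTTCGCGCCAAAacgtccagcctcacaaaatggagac
Mcm6 (chr1:128359720-128359777, minus strand): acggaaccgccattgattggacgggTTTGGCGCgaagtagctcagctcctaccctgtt
Mcm7 (chr5:138172016-138172073, minus strand): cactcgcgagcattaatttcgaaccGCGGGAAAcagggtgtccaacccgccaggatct
Gins3 (chr8:95633493-95633550, plus strand): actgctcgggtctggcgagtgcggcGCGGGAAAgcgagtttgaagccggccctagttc
Pola1 (chrX:93632261-93632318, minus strand): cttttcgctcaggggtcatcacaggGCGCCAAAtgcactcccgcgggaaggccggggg
Rfc3 (chr5:151651209-151651243, minus strand): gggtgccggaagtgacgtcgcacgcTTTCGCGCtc
Uhrf1 (chr17:56304103-56304160, plus strand): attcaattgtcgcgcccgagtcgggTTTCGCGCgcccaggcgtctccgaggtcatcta
Dnmt1 (chr9:20952810-20952867, minus strand): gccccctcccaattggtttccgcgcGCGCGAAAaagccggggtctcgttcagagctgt

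E2F-type letters were present at 16 of the 38 genes with a window (42.1%), in 4.0% of 12620 tested genes with a window and in 2.60% of 27025 genes of the whole table. They were found at licensing genes in 7 of 9 cases (Orc1, Cdc6, Cdt1, Mcm3, Mcm5, Mcm6 and Mcm7), at polymerase genes in 4 of 7, at clamp and lagging strand genes in 2 of 9, at chromatin genes in 2 of 4, at helicase activation genes in 1 of 3 and at nucleotide genes in 0 of 6. Mcm6 carried 3 matches in its window. The CCAAT box was present at 60.5% of the members and 41.6% of the tested genes, and the letters TTTGAA, known as CHR, at 15.8% and 15.2%. Base composition was taken from each gene's window with the highest share of G or C. Within the members the medians were alike, with 62.3% G or C at members with an E2F-type match and 63% at members without. The median was 63% over all members with a window and 60% over the tested genes, with 63.3% at tested genes with a match. No promoter window was at hand for Gmnn, Mcm4, Gins1, Gins2, Gins4, Prim2, Pole and Rfc2. A match of letters describes the sequence and was not tested as a binding site.

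In effector cells nearly the whole replication machinery was higher than in naive adult cells. With the sexes weighted equally, 44 of 45 members rose (limma, Benjamini-Hochberg adjusted p under 0.05), 0 fell, and 40 of them rose by at least 2-fold. Of all 16257 genes tested, 34.6% were called, 23.7% as higher and 10.9% as lower, and 1166 rose by at least 2-fold. The median log2 difference of the members was 2.22, with a range from 0.78 for Rfc1 to 3.64 for Rrm2, against a median of 0.03 over all genes tested. Without the 3 members that passed the filter only through other groups, 41 of 42 rose and the median was 1.99. All 6 effector arrays were above all 6 naive arrays for 43 members, the exceptions being Gins3 and Gins4. How many of all genes tested separated in this way was not counted, so nothing is read from this number about the members. Centring each array on its median moved the median of all genes to 0.17 and that of the members to 2.36, and moved the share of higher genes among those called from 68.5% to 83.0%.

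**Figure D1:**
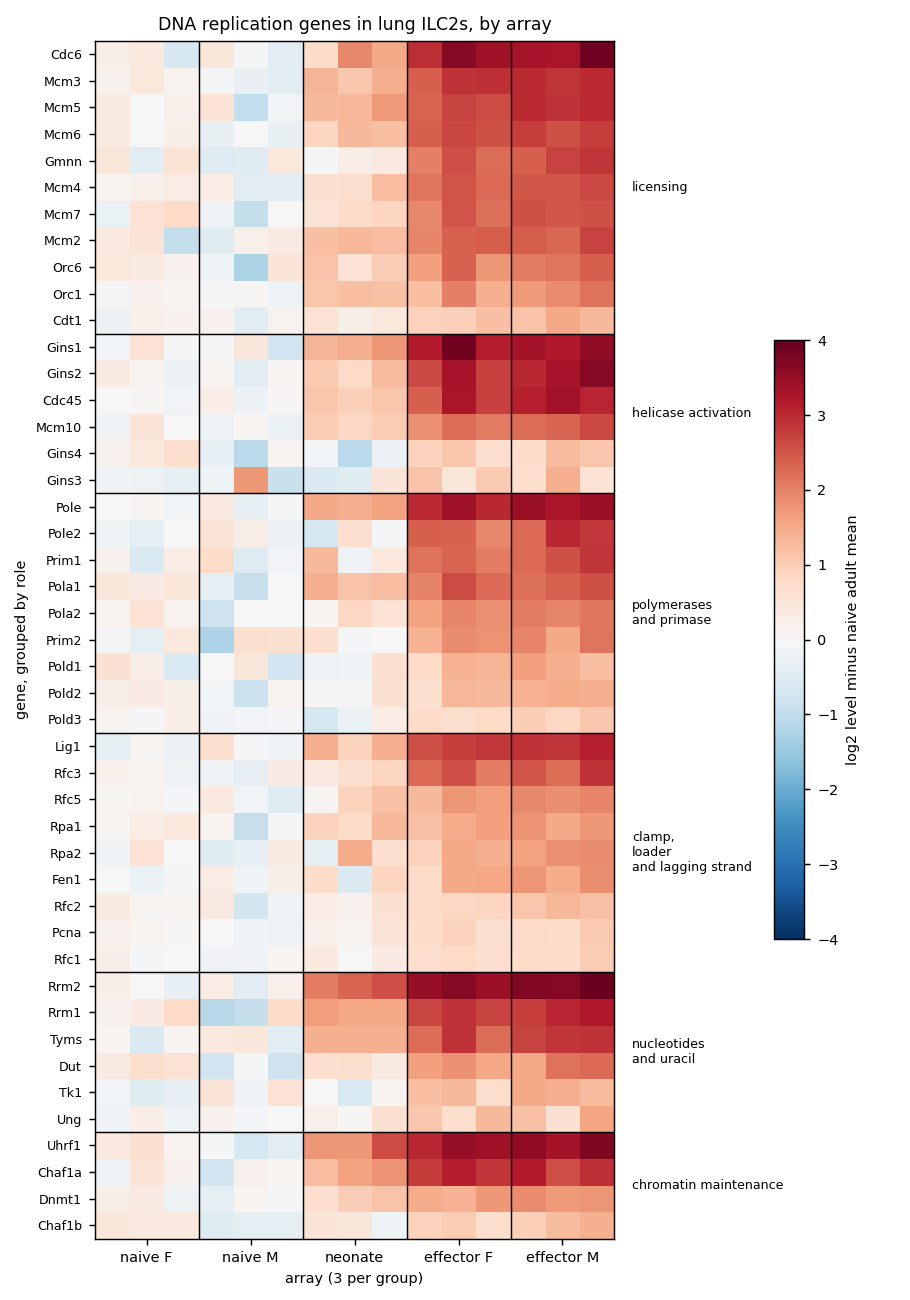
Log2 level of each of 45 DNA replication genes (rows, grouped by role and ordered by the effector difference) in each of 15 arrays (columns, 3 per group, F for females and M for males), drawn as the difference from the mean of the 6 naive adult arrays. Effector arrays are darkest, with array medians of 1.84 to 2.55, and neonatal arrays lie between them and the naive arrays, with array medians of 0.69 to 0.98.

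Array by array, the median difference of the 45 members from the naive mean was between -0.18 and 0.19 in the naive arrays. It was 1.84, 2.33 and 1.94 in effector females, 2.22, 2.23 and 2.55 in effector males, and 0.69, 0.76 and 0.98 in neonates. The 3 kinds of array did not overlap in this summary, which describes the members and was not tested. By role, the median effector difference was 2.61 for helicase activation, 2.42 for licensing, 2.29 for chromatin maintenance, 2.23 for nucleotides, 1.92 for polymerases and primase and 1.54 for clamp, loader and lagging strand.

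The licensing group rose in all 11 members. The Mcm2 to Mcm7 subunits, which form a ring together, rose within a narrow span of 2.35 to 2.84 on the log2 scale. Mcm3 had naive levels from 5.74 to 6.58 (median 6.20) and effector levels from 8.55 to 9.14 (median 9.06). Its difference was 2.84 ± 0.13 (SE, 6 against 6 arrays; 7.17-fold; limma, Benjamini-Hochberg adjusted p = 4.6e-10), and its groups were far apart. Mcm6 showed the tightest grouping, at 7.40 ± 0.26 (SD, n = 6) in naive and 10.01 ± 0.15 in effector cells. Mcm2 gave the smallest difference of the ring, 2.35 ± 0.23 (SE), with naive levels that ranged from 6.08 to 7.55.

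Cdc6, the ATPase that helps load the ring, changed most in this group. It was at 3.36 to 4.44 in naive arrays (median 4.08), in the background range on average, and at 6.96 to 7.88 in effector arrays (median 7.34). The difference of 3.41 ± 0.24 (SE; 10.6-fold; limma, adjusted p = 4.8e-08) is therefore counted from a level that was barely measured, and it became 3.16 when levels below the background bound were raised to it. Cdt1, the other loading factor, changed least, from 5.76 ± 0.27 to 6.94 ± 0.22 (SD, n = 6 each), a difference of 1.17 ± 0.14 (SE). Geminin (Gmnn), the inhibitor that binds Cdt1 and blocks relicensing, had a larger difference than its target: naive arrays lay at 5.75 to 6.82, effector arrays at 8.27 to 9.13, and the difference was 2.46 ± 0.21 (SE; 5.50-fold; limma, adjusted p = 4.1e-07). Whether the differences of Gmnn and Cdt1 differ from each other was not tested. Of the origin recognition complex, Orc1 rose by 1.74 ± 0.14 and Orc6 by 2.06 ± 0.24 (SE).

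Among the genes that turn the loaded ring into a helicase, 4 of the 5 that passed the filter in naive adults rose. Gins1, described here without a test, is a GINS subunit that was in the background range in naive arrays (2.97 to 4.31, median 3.68) and stood at 6.89 to 7.59 in effector arrays (median 7.01). Its difference of 3.38 ± 0.20 (SE) fell to 2.96 with the background floor. Gins2 differed by 3.11 ± 0.17, Cdc45, which links GINS to the ring, by 2.99 ± 0.14, and Mcm10, a factor needed for unwinding, by 2.22 ± 0.14 (SE).

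The other GINS subunits had smaller differences, and the gap between subunits was not tested. Gins4 went from 8.14 ± 0.63 to 9.11 ± 0.24 (SD, n = 6 each), a difference of 0.97 ± 0.21 (SE; limma, adjusted p = 0.00252), and its groups overlapped: naive arrays reached 8.84 and effector arrays began at 8.79. Gins3 was the only member not called. Its naive levels were 4.80, 4.74 and 4.59 in females and 4.78, 6.69 and 4.04 in males, and its effector levels were 5.42 to 6.38. The value of 6.69 in naive male replicate 2 lay above all effector arrays, whereas the other 5 naive arrays lay below all of them. The difference was 0.89 ± 0.35 (SE; limma, adjusted p = 0.0619). It was 1.27 (adjusted p = 9.6e-04) without that array, 1.03 (0.0314) after centring and 0.89 (0.0226) with array weights.

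**Figure D2:**
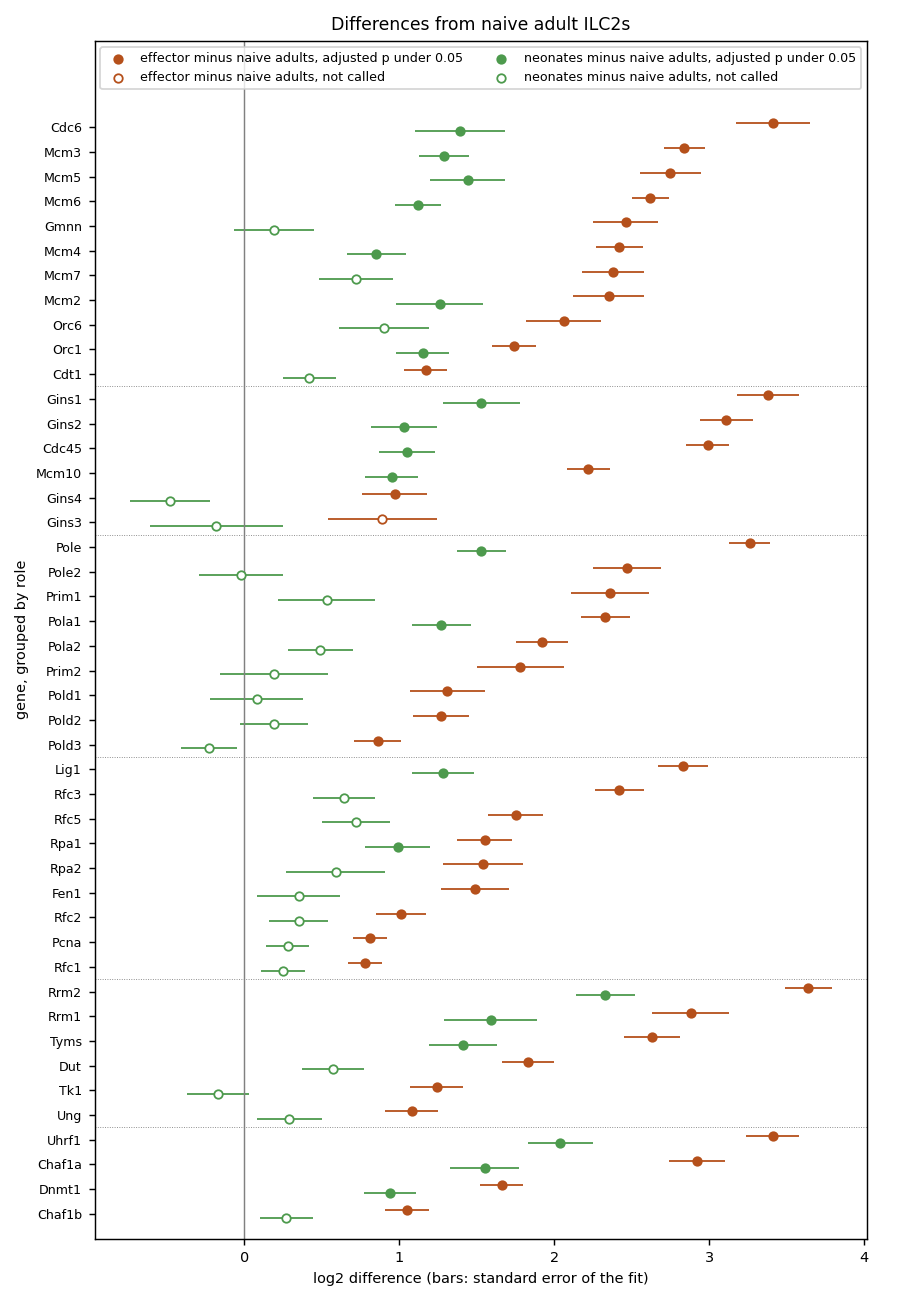
Log2 difference of each member from naive adults (horizontal axis), in effector adults (orange) and in neonates (green), with the standard error of the fit as bars; filled points passed an adjusted p of 0.05 and open points did not. Effector differences are positive for all 45 members with only Gins3 open, whereas 24 neonatal points are open, most of them polymerase and clamp genes. Both sets of differences were taken from the same 6 naive arrays, and the points of Gins1, Pole2 and Chaf1a are a description, since these genes passed the dim filter only outside the naive adults.

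All 8 polymerase and primase genes that passed the filter in naive adults rose. Pole, the catalytic subunit of the leading strand polymerase epsilon, had the largest difference: naive arrays lay at 4.99 to 5.71 (median 5.30) and effector arrays at 8.31 to 8.76 (median 8.64), with no overlap. This was 3.26 ± 0.13 (SE; 9.55-fold; limma, adjusted p = 1.6e-10). Its partner subunit Pole2, described without a test, was in the background range in naive arrays (3.50 to 4.37) and reached 5.79 to 6.88 in effector arrays, a difference of 2.47 ± 0.22 (SE), or 2.18 with the background floor.

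Genes of the lagging strand polymerase delta moved less. Pold1, its catalytic subunit, differed by 1.31 ± 0.24, Pold2 by 1.27 ± 0.18 and Pold3 by 0.86 ± 0.15 (SE), the smallest value of the group. Pold3 nonetheless separated the groups, with naive arrays at 7.18 to 7.58 and effector arrays at 8.01 to 8.40 (limma, adjusted p = 3.4e-04). The primase and polymerase alpha genes, which lay down primers, lay between: Prim1 2.36 ± 0.25, Pola1 2.33 ± 0.16, Pola2 1.92 ± 0.17 and Prim2 1.78 ± 0.28 (SE of the log2 difference).

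The clamp, loader and lagging strand group rose in all 9 measured genes and held the smallest differences of the list. Pcna, the sliding clamp, was at 10.02 to 10.41 in naive arrays (median 10.25) and at 10.85 to 11.26 in effector arrays (median 10.99). The shift of 0.81 ± 0.11 (SE; 1.75-fold; limma, adjusted p = 5.7e-05) was small and the groups did not overlap. Rfc1, the large subunit of the clamp loader, gave the smallest difference of all members, 0.78 ± 0.11 (SE), from 6.96 ± 0.16 to 7.74 ± 0.13 (SD, n = 6 each).

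Subunits of the clamp loader ranged widely, with log2 differences of 2.42 ± 0.16 for Rfc3, 1.75 ± 0.18 for Rfc5 and 1.01 ± 0.16 for Rfc2 (SE). Lig1, the ligase that seals Okazaki fragments, had the largest difference of the group. It went from 6.57 to 7.63 (median 6.82) in naive arrays to 9.50 to 10.03 (median 9.76) in effector arrays, 2.83 ± 0.16 (SE; 7.12-fold; limma, adjusted p = 4.5e-09). The flap nuclease Fen1 differed by 1.49 ± 0.22, and the single-strand binding proteins Rpa1 and Rpa2 by 1.55 ± 0.18 and 1.54 ± 0.26 (SE). The Fen1 value rested on its brighter feature: with the mean of both of its features the difference was 0.64.

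Nucleotide genes rose in all 6 cases and included the largest difference of the list. Rrm2, the cell-cycle regulated subunit of ribonucleotide reductase, was at 3.54 to 4.29 in naive arrays (median 4.09) and at 7.39 to 7.92 in effector arrays (median 7.64). The naive mean was in the background range, and the difference of 3.64 ± 0.15 (SE; 12.5-fold; limma, adjusted p = 2.7e-10) became 3.44 with the background floor. The large subunit Rrm1 differed by 2.88 ± 0.25 and Tyms, which makes thymidylate, by 2.63 ± 0.18 (SE).

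Dut, which removes dUTP so that uracil is kept out of DNA, differed by 1.83 ± 0.17, and thymidine kinase Tk1 by 1.24 ± 0.17 (SE). Ung, which excises uracil from DNA, gave the smallest value of the group, from 5.13 ± 0.19 to 6.22 ± 0.36 (SD, n = 6 each), a difference of 1.08 ± 0.17 (SE; limma, adjusted p = 2.0e-04).

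All 3 chromatin genes that passed the filter in naive adults rose. Uhrf1, which recognises hemimethylated DNA and recruits Dnmt1, was at 4.15 to 5.49 in naive arrays (median 4.90) and 7.87 to 8.57 in effector arrays (median 8.28), a difference of 3.41 ± 0.17 (SE; 10.6-fold; limma, adjusted p = 1.5e-09). The maintenance methyltransferase Dnmt1 differed by 1.66 ± 0.14 (SE). The subunits of chromatin assembly factor 1 lay apart, with 2.92 ± 0.18 for Chaf1a (no test), whose naive levels were 3.32 to 4.60, and 1.05 ± 0.14 for Chaf1b (SE).

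Members with E2F-type letters in the promoter window had a median effector difference of 2.40 (0.86 to 3.41, 16 genes) and those with a window but no such letters had 1.83 (0.78 to 3.64, 21 genes). The ranges overlap almost entirely. Rrm2, at the top, had none of the letters, and Gins3 and Pold3, near the bottom, had them. These values describe the members and were not tested. Over all tested genes the medians were 0.31 with and 0.04 without the letters.

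**Figure D3:**
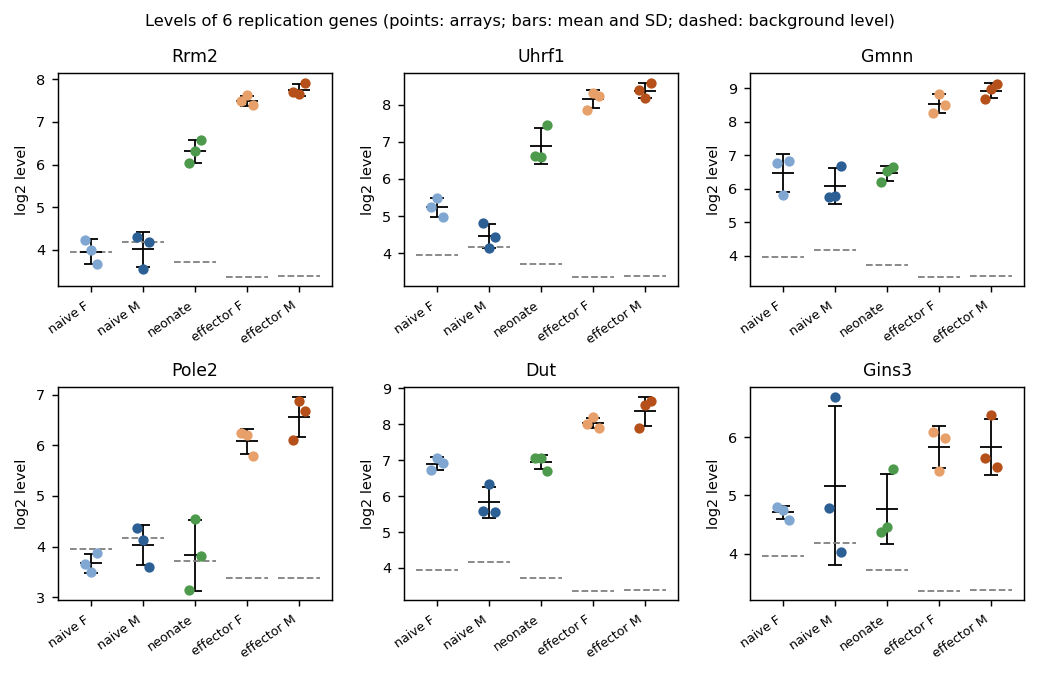
Log2 levels of 6 replication genes in each array (points), with the mean and SD of 3 arrays (black bars) and the background bound of each group (dashed). Rrm2 and Uhrf1 are intermediate in neonates, Gmnn and Pole2 in neonates lie with the naive arrays, Dut is lower in naive males than in naive females, and Gins3 has a single naive male array above all effector arrays.

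Neonatal cells were higher than naive adult cells for part of the list. Of 45 members 21 rose, 0 fell and 24 did not pass (limma, adjusted p under 0.05), where 10.2% of all genes tested were called, 6.04% as higher and 4.12% as lower. The median log2 difference was 0.72 and the range ran from -0.48 for Gins4 to 2.33 for Rrm2, against a median of 0.02 over all genes. All 3 neonatal arrays were above all 6 naive adult arrays for 24 members and overlapped them for 21. The share of all genes with such a separation was not counted, so these numbers only describe the members. Of the 42 members that passed the filter in naive adults alone, 19 rose. Compared with adult females alone 18 members rose, and compared with adult males alone 25 did. The count of all genes called with females alone is given in the closing section, and that with males alone is not given here. Against females alone the calls of Mcm4 (0.66, adjusted p = 0.0936), Rpa1 (0.71, 0.112) and Rrm1 (1.16, 0.0678) were lost (limma). Leaving out 1 array brought in others: Orc6 (1.11, adjusted p = 0.00936), Mcm7 (0.82, 0.0439) and Rfc3 (0.73, 0.0234) passed without naive male replicate 3, and Dut (0.70, 0.0279) without naive male replicate 2. Rfc5 (1.03, adjusted p = 0.00955) and Rpa2 (1.08, 0.0355) passed without neonate replicate 1, and Fen1 (0.79, 0.0331) without neonate replicate 2. Mcm7 (0.83, adjusted p = 0.0459) also passed without naive female replicate 3, and Rfc5 (0.84, 0.0241) without naive male replicate 1.

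The share that rose differed by role, as a description over the 42 genes: 7 of 11 licensing genes, 3 of 5 helicase activation genes, 2 of 3 chromatin genes, 3 of 6 nucleotide genes, 2 of 8 polymerase genes and 2 of 9 clamp and lagging strand genes. Rrm2 had neonatal levels of 6.04, 6.32 and 6.58, all above the highest naive adult level of 4.29 and below the lowest effector level of 7.39. Its difference from naive adults was 2.33 ± 0.19 (SE, 3 against 6 arrays; 5.01-fold; limma, adjusted p = 2.4e-06), or 2.13 with the background floor. Uhrf1 came next, at 6.62, 6.60 and 7.45 in neonates, 2.04 ± 0.21 (SE) above naive adults, and it too lay between the other groups.

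Rrm1 was at 7.19, 7.06 and 7.06 in neonates and Tyms at 6.84 in each of the 3 arrays, differences of 1.59 ± 0.30 and 1.41 ± 0.22 (SE). The 3 deposited Tyms values are identical, as they are in neonates for 14 of 41345 features, so their SD of 0.00 is no measure of biological spread. Dnmt1 rose by 0.94 ± 0.17, Chaf1a had a difference of 1.55 ± 0.22, given without a test, and Chaf1b differed by 0.27 ± 0.17 (SE; limma, adjusted p = 0.342).

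In the licensing group Mcm5 rose most, with neonatal levels of 7.99, 8.02 and 8.41 and a difference of 1.44 ± 0.24 (SE; limma, adjusted p = 0.00159). Cdc6 (1.39), Mcm3 (1.29), Mcm2 (1.26), Orc1 (1.15), Mcm6 (1.12) and Mcm4 (0.85) also passed, as log2 differences, whereas Mcm7 (0.72), Orc6 (0.90), Cdt1 (0.42) and Gmnn (0.19) did not. With the background floor the Cdc6 difference became 1.13. The calls of Cdc6 and Mcm2 were lost with array weights (adjusted p = 0.0527 and 0.0569). With only the compared arrays in the fit, Mcm2 had an adjusted p of 0.0508 and Mcm4 of 0.0594. Cdc45 (1.05), Gins2 (1.03) and Mcm10 (0.95) rose among the helicase activation genes, and Gins4 (-0.48) and Gins3 (-0.18) did not pass. Gins1 had a difference of 1.53, or 1.11 with the background floor, given without a test.

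Pole was the polymerase gene with the largest neonatal difference. It stood at 6.84, 6.76 and 6.93, above every naive adult array and below every effector array, 1.53 ± 0.16 (SE; limma, adjusted p = 2.9e-05) above naive adults. Pola1 rose by 1.27 ± 0.19 (SE). The other 6 genes with a test had log2 differences between -0.23 for Pold3 and 0.53 for Prim1, none of which passed. In the clamp group Lig1 (1.28 ± 0.20) and Rpa1 (0.99 ± 0.21, SE) rose, while Pcna differed by 0.28 ± 0.14 (SE; limma, adjusted p = 0.21).

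Several members that were higher in effector cells overlapped the naive adult range in neonates. Gmnn was at 6.19, 6.52 and 6.64 in neonates, within the naive adult range of 5.75 to 6.82. Pole2 was at 3.14, 4.54 and 3.82, around the background bound as in naive adults, with a difference of -0.02 ± 0.27 (SE, no test). Tk1 was at 6.60, 6.02 and 6.74 and differed from naive adults by -0.17 ± 0.20 (SE; limma, adjusted p = 0.647). Each of these 3 genes was lower in neonates than in effector cells in every array, with a difference of neonates from effector cells of -2.27 ± 0.26 for Gmnn (SE; limma, adjusted p = 3.4e-05), -1.41 ± 0.20 for Tk1 (3.0e-04) and -2.49 ± 0.27 for Pole2, the last without a test.

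Set directly against effector adults, neonates were lower for 43 of 45 members and higher for 0 (limma, adjusted p under 0.05). Over all genes tested 20.6% were called, 5.93% as higher and 14.7% as lower in neonates. Without Gins1, Pole2 and Chaf1a, 40 of 42 were lower, with a median of -1.27 and the largest difference, -2.27, for Gmnn. Gins3 (-1.06 ± 0.43, adjusted p = 0.0916) and Rpa1 (-0.56 ± 0.21, adjusted p = 0.0758; SE, limma) did not pass. Over the 45 the median log2 difference was -1.28, from -2.49 for Pole2 to -0.52 for Pcna. The neonatal arrays lay below all 6 effector arrays for 40 members and overlapped them for 5. A count of such separation over all genes was not made, and nothing is read from these numbers. The call of Rpa2, at 5.57, 7.44 and 6.62 in neonates, was lost under many alternatives, for example without neonate replicate 1 (-0.46, adjusted p = 0.278). Without neonate replicate 2 the calls of Orc1 (-0.60, adjusted p = 0.0617), Orc6 (-1.0, 0.0665), Pold1 (-1.10, 0.0562), Pcna (-0.45, 0.066), Rfc1 (-0.42, 0.078), Rfc2 (-0.57, 0.115) and Ung (-0.68, 0.0835) were lost. Without neonate replicate 1 the calls of Orc1 (-0.56, adjusted p = 0.0722), Pold1 (-1.07, 0.0512), Pcna (-0.48, 0.0507), Rfc2 (-0.62, 0.0789) and Ung (-0.74, 0.0584) were lost as well. The call of Rfc2 was also lost without effector male replicate 2 (-0.63, adjusted p = 0.0536) and that of Orc1 without effector male replicate 3 (-0.52, 0.0572). Without neonate replicate 3, Gins3 (-1.41, adjusted p = 0.048) and Rpa1 (-0.74, 0.0378) passed. Both also passed without naive male replicate 2 (adjusted p = 0.0133 and 0.0266), and Gins3 without naive male replicate 3 (adjusted p = 0.0478). Against adult females alone, 30 members were lower, and the count of all genes called in that fit is given in the closing section.

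Markers of other cells were not level between these groups. The summed level of 7 mast cell and basophil markers was 10.58 to 10.68 (log2) in neonates. Naive females lay at 9.03 to 9.24, naive males at 7.69 to 8.10, and effector adults at 7.58 to 8.57, with 2 or 3 of the markers in the background range in each group. Within this list the genes did not move together. The mast cell protease gene Cpa3, by far the brightest, had group means of 10.43 in neonates, 8.91 in naive females and 7.10 in naive males, whereas Mcpt8 was at 6.58, 4.17 and 5.39 and the receptor gene Fcer1a at 2.70, 2.81 and 2.89. Of the 4 mast cell and basophil markers tested, 3 were higher in neonates than in naive adults (limma, adjusted p under 0.05). The 7 epithelial markers summed to 8.25 to 9.02 in neonates and 7.65 to 8.47 in adults. Of these the surfactant gene Sftpc was at 7.51 in neonates and 5.84 or lower in the adult groups, while Cdh1 was at 5.71 in neonates and 6.08 in naive females. Fibroblast markers summed to 7.14 to 7.34 in neonates and 6.60 to 7.0 in adults, without overlap, and 3 of 3 tested were higher in neonates than in effector adults and 0 of 3 higher than in naive adults, with 2 at an unadjusted p under 0.05. Macrophage markers summed to 7.81 to 7.92 in neonates and 7.42 to 7.80 in adults, with 1 of 6 tested higher in neonates in each comparison. T cell markers summed to 10.37 to 10.88 in neonates, 10.21 to 10.69 in naive adults and 9.56 to 10.12 in effector adults. Most of that sum came from Cd3g, with group means of 9.49 to 10.43. Of 8 T cell markers tested, 2 were higher in neonates than in naive adults and 3 higher than in effector adults, with 0 lower (limma, adjusted p under 0.05). Sums of B cell, NK cell, erythroid and endothelial markers overlapped between neonates and adults. The part of these cells in the differences of the replication genes was not tested.

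In each sex by itself the effector difference covered most of the list. In females 40 members rose, where 14.0% of all genes were called in either direction and 1663 of 16257 as higher. In males 44 members rose, where 24.9% of all genes were called in either direction and 3032 as higher. Without Gins1, Pole2 and Chaf1a, 37 of 42 rose in females and 41 of 42 in males. The members not called in females were Gins3, Gins4, Rfc2, Rpa2 and Chaf1b, and the member not called in males was Gins3. The female calls of Pold1, Pold2 and Pold3 were close to the threshold (adjusted p = 0.0461, 0.0372 and 0.0472; limma) and were lost under 11, 8 and 14 of 25 alternatives, among them the omission of effector female replicate 2 (0.158, 0.15 and 0.102). Pcna (0.57, adjusted p = 0.0686) and Rfc1 (0.60, 0.0626) also lost their female calls without that array, Rfc1 (0.59, 0.0567) without naive female replicate 2, and Fen1 (0.52, 0.115) with the mean of its features. Other members gained a female call. Rpa2, at an adjusted p of 0.0504, passed under 11 of the 25 alternatives, for example without neonate replicate 1 (1.15, 0.0128) and with a replicate block (1.15, 0.0177). Rfc2 passed under 5, for example without naive male replicate 2 (0.64, adjusted p = 0.0261), Gins3 under 3, among them with only the compared arrays (1.12, 0.00672) and without naive male replicate 2 (1.12, 0.0274), and Chaf1b under 1, after centring (0.58, 0.049). In males Gins3 passed without naive male replicate 2 (1.42, adjusted p = 0.0117). The median log2 difference of the members was 1.86 in females and 2.52 in males.

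**Figure D4:**
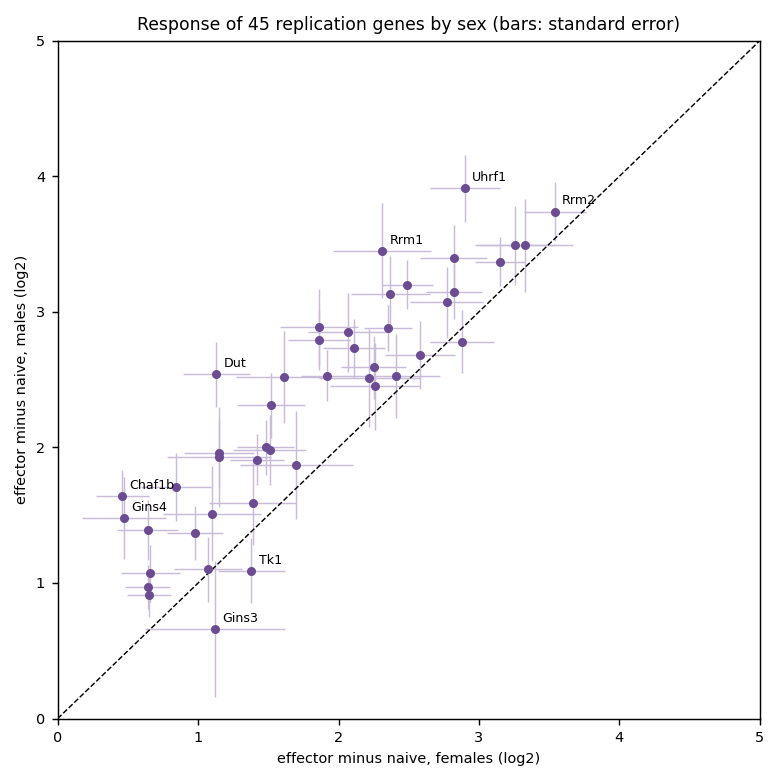
Effector minus naive difference (log2) of 45 replication genes in females (horizontal) and in males (vertical), each from 3 effector and 3 naive arrays, with standard errors; the dashed line marks equal differences. Most genes lie above the line, with Dut, Chaf1b and Rrm1 among the farthest from it and Gins3, Tk1 and Lig1 below it, but no single gene passed the test of the difference.

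The difference between the responses of the sexes was tested directly. It was called for 0 members and for 0% of all genes (limma, adjusted p under 0.05), with 14 of 45 members and 5.33% of all genes at an unadjusted p under 0.05. The female response was smaller for 42 of 45 members and for 59.4% of all genes, and the median was -0.47 against -0.08 over all genes. Dut had the largest value, -1.41 ± 0.33 (SE; adjusted p = 0.611), followed by Chaf1b at -1.18 ± 0.27 (0.608) and Rrm1 at -1.14 ± 0.49 (0.909). Without naive male replicate 3, Rrm1 reached -1.72 (adjusted p = 0.0401).

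The naive arrays of the sexes were also compared, and no member was called (0 of 45, against 0.209% of all genes), with 12 of 45 at an unadjusted p under 0.05, against 9.93% of all genes. The difference of the responses holds this naive difference with its sign turned. Both use the same naive arrays, so they are not separate observations. Dut was at 6.73, 7.06 and 6.94 in naive females and 5.60, 6.33 and 5.55 in naive males, without overlap. The difference was 1.08 ± 0.24 (SE; limma, adjusted p = 0.0963). Chaf1b was at 7.34, 7.29 and 7.28 in naive females and 6.39, 6.50 and 6.51 in naive males, 0.84 ± 0.19 (SE; limma, adjusted p = 0.119). Both pairs of groups are apart by more than their own spread, but neither value passes over all genes. Leaving out 1 array changed this in a few cases: Dut passed without naive male replicate 2 (1.34, adjusted p = 0.0344), Pola1 (1.06, 0.0489) and Rrm1 (1.46, 0.00385) passed without naive male replicate 3, and Chaf1b (0.84, 0.0496) passed without neonate replicate 3. Rrm1 had naive male levels of 4.42, 4.57 and 6.25, so its value turned on 1 array. Tk1 had the opposite sign, -0.62 ± 0.24 (SE). In effector cells the sexes differed for 0 members, with 0 at an unadjusted p under 0.05 against 2.04% of all genes, and 0.0308% of all genes were called. The difference of effector females from effector males was positive for 2 of 45 members and for 51.8% of all genes. Its median was -0.25 over the members and 0.01 over all genes.

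Genes around the list were examined to place the members, from lists set by role, with counts to be read against the 23.7% of all genes that rose and the 10.9% that fell. Among 15 origin, kinase and firing factors, 11 rose and 1 fell in effector cells: Ccna2, the S phase cyclin, by 3.91 ± 0.33 and Ticrr, which helps activate the helicase, by 3.46 ± 0.21 (SE), while the origin subunit Orc4 fell by 0.51 (adjusted p = 0.0426; limma). Orc3 and Orc5 did not pass, at 0.25 and 0.26, whereas the member subunits Orc1 and Orc6 rose as given above. Of 20 fork accessory and checkpoint genes 16 rose, with the fork protection factor Tipin (2.86 ± 0.20) and the clamp loader subunit Dscc1 (2.48 ± 0.18, SE) at the top. Without Dscc1 and Dna2, which passed the filter only outside the naive adults, 14 of 18 rose. The small polymerase subunits Pold4 (0.08) and Pole4 (-0.25) did not pass.

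**Figure D5:**
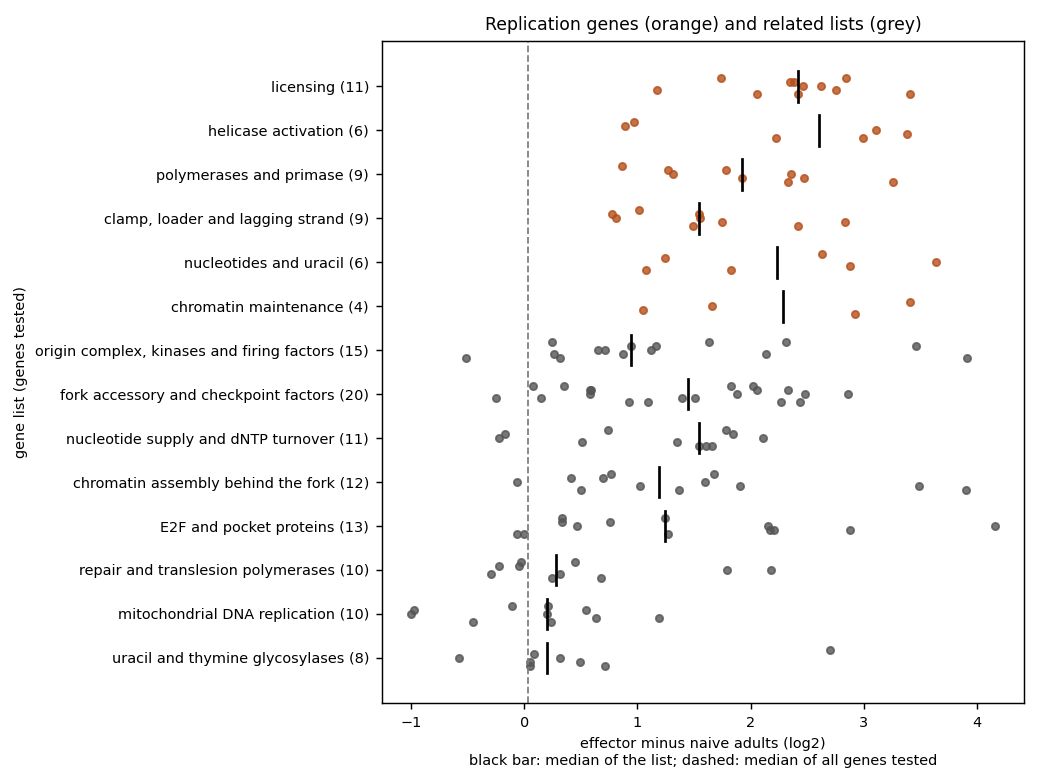
Effector minus naive difference (log2) of each gene (points) in the 6 member groups (orange) and 8 related lists (grey), with the number of genes tested in brackets, the median of each list as a black bar and the median of all genes tested (0.03) as a dashed line. Member groups have medians from 1.54 to 2.61, while repair polymerases, mitochondrial replication genes and glycosylases have medians from 0.20 to 0.28.

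In the wider nucleotide supply 9 of 11 genes rose, led by the kinase Dck (2.11 ± 0.30) and the pyrophosphatase Dctpp1 (1.84 ± 0.14, SE). Rrm2b, the reductase subunit used outside S phase, did not pass at -0.22 ± 0.20 (SE; limma, adjusted p = 0.427), in contrast to the value of its counterpart Rrm2. In chromatin assembly behind the fork 11 of 12 rose, with the remodeller Hells at 3.90 ± 0.19 and the histone chaperone Asf1b at 3.49 ± 0.15 (SE). The de novo methyltransferase Dnmt3a was at -0.06 ± 0.16 (SE; limma, adjusted p = 0.79). Of 13 E2F and pocket protein genes 10 rose, above all the repressor E2f8 (4.16 ± 0.21) and the dimer partner Tfdp1 (2.88 ± 0.33, SE). Without E2f2, which passed the filter only outside the naive adults, 9 of 12 rose.

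Lists of DNA synthesis outside nuclear replication and of DNA glycosylases had counts nearer to the shares of all genes. With lists this small nothing is read from the counts about the lists. Of 10 repair and translesion polymerase genes 3 rose, with Polq (2.18 ± 0.19) and Polh (1.79 ± 0.24, SE) largest. Without Polq, which passed the filter only outside the naive adults, 2 of 9 rose. Of 10 mitochondrial replication genes 3 rose and 3 fell: Tfam by 1.19 ± 0.26 upwards, and Tk2, the mitochondrial thymidine kinase, fell by 1.00 and the polymerase subunit Polg2 fell by 0.97. Tk2 thus had a sign opposite to that of the cytosolic Tk1. Of 8 other DNA glycosylase genes, which act on several kinds of base, 3 rose and 1 fell. Neil3 rose by 2.70 ± 0.14 (SE) and Smug1, which like Ung removes uracil, fell by 0.58 (limma, adjusted p = 0.00384).

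The same lists gave fewer calls in neonates against naive adults, which used the same naive arrays. Of all genes 6.04% were called higher and 4.12% lower there, with 25.3% at an unadjusted p under 0.05. In neonates 4 of 15 origin and kinase genes rose, 7 of 20 fork accessory genes, 0 of 11 nucleotide supply genes with 4 at an unadjusted p under 0.05, and 2 of 10 repair polymerases, with Poli lower. With lists this small nothing is read from the counts for nucleotide supply and repair polymerases. Without the genes that passed the filter only outside the naive adults, 6 of 18 fork accessory genes, 1 of 9 repair polymerases and 5 of 12 E2F and pocket protein genes rose. Chromatin assembly had 8 of 12 higher and 1 lower, with Asf1b at 2.72 ± 0.18 and Hells at 1.62 ± 0.23 (SE). E2F and pocket proteins had 6 of 13 higher and 1 lower, with E2f8 at 2.14 ± 0.26 (SE). Of the mitochondrial genes only Tk2 passed, at 0.55 ± 0.16 (SE; limma, adjusted p = 0.0402), and of the glycosylases only Neil3, at 1.45 ± 0.17 (SE).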

How the data were processed

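The authors deposited log2 levels of 41345 features, made per the submitters' processing notes with Affymetrix Expression Console and RMA (background correction, quantile normalization and probe summary); no source used here gives its versions or filters, and scanner intensities were not used here. Trizol was used for extraction and biotin for labelling, per the labels' protocols. Of these, 23521 were annotated with a single symbol, 1814 with more and 16010 lacked one. Features above their array's percentile 40 in at least 3 arrays were kept, which left 16257 genes after taking the feature with the highest mean per gene. The 15 arrays entered a joint linear model of the 5 group means (limma 3.58.1, R 4.3.3; 10 residual and 5.05 prior degrees of freedom, two-sided), and p was adjusted over the 16257 genes by Benjamini-Hochberg; genes were called at an adjusted p under 0.05. Standard errors are the moderated errors of this fit. Precision is limited by the number of arrays.

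The script was tested on simulated data. Replicate numbers did not pair the arrays (correlation of deviations -0.11 to 0.099 over 30 same-number pairs). The members and gene lists were chosen with earlier results of these data known. Named in full were, per role, the members with the largest and smallest effector difference, members not called, and the largest 2 called in other comparisons; of each related list, the 2 largest called differences in either direction. Alternatives were other filters, scalings, priors and features, a background floor, a replicate block, fits of only the compared arrays, a 2-fold threshold, adults of 1 sex, and each array left out. Figures were drawn with matplotlib 3.10.9.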

Additional observations from a re-analysis of the deposited data

Results flagged for a closer look

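In each group of 6 adult arrays, the highest and lowest array of a member was compared with the rest by its gap to the nearest other array over the whole range (Dixon's criterion). Chance marks about 1 in 20 groups, or 4.5 of the 90 tested, and 6 were marked, so the values below are near the number that chance gives. Mcm3 was lowest in effector female replicate 1, at 8.55, with the next array at 9.02. Pold2 (8.02, next 8.64) and Fen1 (5.46, next 6.17) were also lowest in that array, which had the smallest median effector difference of the members (1.84). Naive male replicate 2 was highest for Gins3 (6.69, next 4.80) and lowest for Pold2 (6.49, next 7.24) and Rpa1 (5.34, next 6.20). That array had the highest level of smell and pheromone receptor genes, 4.54, and its part in these values was not tested.

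Features outside the rule carried signal in 2 cases, of which 1 belongs to a member by itself. The feature shared by Rfc4 and Eif4a2 was at 5.13 ± 0.54 in naive adults, 7.58 ± 0.42 in effector adults and 5.42 ± 1.00 in neonates (SD, n = 6, 6 and 3), an effector difference of 2.45 with no overlap of arrays, which cannot be assigned to either gene. A second Rrm2 feature, dimmer than the one used, went from 3.12 to 5.60, a difference of 2.48, also without overlap. Second or shared features of Pole (-0.25), Fen1 (-0.21), Rpa1 (0.39), Dut (0.13), Mcm7 (0.09 and -0.28) and Tyms (0.00) overlapped between naive and effector arrays.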

How the results depend on the processing

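No difference of a member changed sign past a threshold. Leaving out 1 array at a time, members called ranged from 44 to 45 for effector against naive adults, 35 to 41 in females, 44 to 45 in males, 21 to 24 for neonates against naive adults, 36 to 44 for neonates against effector adults, 0 to 2 for naive females against males and 0 to 1 for the difference of the responses. Over the other alternatives the first 5 counts ranged over 40 to 45, 35 to 43, 42 to 44, 17 to 25 and 30 to 44. With a replicate block, 44 members were called for effector against naive adults, and 40, 44, 21 and 43 in the next 4 comparisons. The count of 40 in females held a lost call, Pold1 (1.10, adjusted p = 0.0553), and a gained one, Rpa2 (1.15, 0.0177); the block changed no other call of a member.

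Counts over all genes moved more. With at least a 2-fold difference, 1555 genes were called for effector against naive adults (5628 otherwise), 1226 in females, 1981 in males, 632 for neonates against naive and 1081 for neonates against effector adults. With array weights the counts were 3745 in females, 705 and 2068 for the neonatal comparisons, 19 for naive and 11 for effector females against males. With only the compared arrays they were 676 for neonates against naive adults, 8 for naive and 8 for effector females against males. Adult females alone gave 935 and 1942 in the neonatal comparisons. The difference of responses had 1 gene with the filter at percentile 60, after centring, with array weights or with the replicate block. Leaving out 1 array gave 1358 (effector female 2) to 2515 in females, 2607 (effector male 3) to 4403 in males, 1031 (neonate 1) to 1856 and 2061 (neonate 2) to 3761 in the neonatal comparisons, 16 to 99 (naive male 3) for naive sexes and 0 to 8 (naive male 3) for the difference of responses. The causes were not tested beyond the fewer arrays in these fits. Members near the background bound limit how large a difference can be measured.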
